A study of Mus musculus with 14 samples.

Results

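In mouse tumours grown from LLC1, a Lewis lung carcinoma line, 10 immediate early genes were followed among the 21152 genes of the deposited table. The AP-1 genes were Fos (ENSMUSG00000021250.14), Fosb (ENSMUSG00000003545.4), Jun (ENSMUSG00000052684.6), Junb (ENSMUSG00000052837.8) and Atf3 (ENSMUSG00000026628.14). The others were Egr1 (ENSMUSG00000038418.9), Egr2 (ENSMUSG00000037868.16), Nr4a1 (ENSMUSG00000023034.8), Ier2 (ENSMUSG00000053560.6) and Dusp1 (ENSMUSG00000024190.8). Dusp1 encodes a phosphatase and not a transcription factor. The 10 genes had been picked because their values were higher with MYCi975, so their difference between MYCi975 and vehicle is given as a description and without a test. The 14 RNA sequencing libraries fell into MYCi975 (n = 4), the combination of MYCi975 and TMP195 (n = 3), TMP195 (n = 3) and vehicle, which was DMSO (n = 4). MYCi975 is a compound that inhibits MYC, a transcription factor of growth, and TMP195 is an inhibitor of class IIa histone deacetylases. Each single agent was dosed at 50 mg/kg, all tumours were taken after 16 days of treatment, and the dose of each drug within the combination is not stated in the labels. All groups carried the same tumour line in mice whose strain and age the labels do not state, and the RNA came from a tumour cell suspension described as enriched in one label and as bulk in another. The question was how each drug, alone or added to the other, changes RNA levels in the tumour.

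Immediate early genes are switched on by signals already present in the cell, with no need for new protein synthesis, and their RNA and protein are short-lived. Growth factors, cytokines and stress reach them through MAP kinases, which act on promoter-bound factors such as SRF with its ELK partners and CREB. Fos and Jun family proteins pair to form the transcription factor AP-1, while Dusp1 acts as a brake on the same kinases. In solid tissue they are also known to respond to the handling that turns a tumour into a cell suspension.

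Values are variance-stabilised expression on a log2 scale with a lowest value of 4.047, which is taken here as the level of no detected reads, and read depth is unknown. Genes with a mean more than 1 above that value were tested, which left 13711 genes and all 10 of the immediate early genes. Differences on this scale understate the change of genes near the lowest value, which concerns Egr2 most.

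The promoters are shown because the 10 genes moved together from library to library. RefSeq sequences (build GRCm38.p6) of the 250 bases before the start site were read for 8 of the 10 genes, the others being Egr1 and Ier2. Capitals mark the core of the cyclic AMP response element (CRE), TGACG or its reverse complement CGTCA, to which CREB can bind. The 5 printed are the 4 whose results are described most and Jun, in which no core was found.

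Fos, chr12:85473640-85473889, plus strand: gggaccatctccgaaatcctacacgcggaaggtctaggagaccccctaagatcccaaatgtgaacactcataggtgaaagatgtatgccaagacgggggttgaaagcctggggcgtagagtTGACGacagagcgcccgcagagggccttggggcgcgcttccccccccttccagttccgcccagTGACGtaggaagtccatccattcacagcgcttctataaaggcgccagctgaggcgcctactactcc

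Atf3, chr1:191183334-191183583, minus strand: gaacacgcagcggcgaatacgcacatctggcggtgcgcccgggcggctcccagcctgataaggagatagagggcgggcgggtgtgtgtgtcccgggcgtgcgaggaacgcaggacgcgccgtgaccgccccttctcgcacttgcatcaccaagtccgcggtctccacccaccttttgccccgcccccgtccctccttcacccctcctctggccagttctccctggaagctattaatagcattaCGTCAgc

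Nr4a1, chr15:101266596-101266845, plus strand: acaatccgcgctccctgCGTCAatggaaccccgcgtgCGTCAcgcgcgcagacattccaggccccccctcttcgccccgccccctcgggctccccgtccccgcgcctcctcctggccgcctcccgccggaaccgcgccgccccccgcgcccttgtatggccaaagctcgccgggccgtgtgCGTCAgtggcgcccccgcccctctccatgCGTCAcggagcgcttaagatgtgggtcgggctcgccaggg

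Dusp1, chr17:26508473-26508722, minus strand: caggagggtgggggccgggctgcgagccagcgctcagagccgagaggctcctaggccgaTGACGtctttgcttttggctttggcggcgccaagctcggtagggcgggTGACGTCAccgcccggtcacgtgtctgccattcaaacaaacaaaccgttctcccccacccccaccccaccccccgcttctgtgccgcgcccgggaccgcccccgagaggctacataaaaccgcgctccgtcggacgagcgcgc

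Jun, chr4:95052223-95052472, minus strand: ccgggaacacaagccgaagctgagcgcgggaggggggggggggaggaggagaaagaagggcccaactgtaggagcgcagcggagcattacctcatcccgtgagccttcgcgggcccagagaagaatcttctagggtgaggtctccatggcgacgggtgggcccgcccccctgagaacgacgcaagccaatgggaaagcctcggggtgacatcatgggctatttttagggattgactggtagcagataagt

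A CRE core lay in the promoters of 7 of the 8 genes, against 19.8% of the 27025 genes with a RefSeq promoter of this length. Nr4a1 had 4 such sites, Dusp1 3 and Fos 2, and Egr2 had 2 in some of its 5 listed promoters. The full element TGACGTCA, which contains 2 overlapping cores, was found only in Dusp1 among the 8 genes, and in 1.77% of all genes. The CArG box, to which SRF binds, was found in this window in Egr2 alone among the 8 (1.62% of all genes), and Egr1 was not read. The AP-1 site TGANTCA was in none of the 8 (7.82% of all genes), and the E-box CACGTG, to which MYC and MAX can bind, was in Egr2 and Dusp1 (6.86%). Both strands were searched, and a match describes letters in this window and not binding.

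A library stood apart. MYCi975 replicate 2 had 2954 genes at the lowest value, against 880 to 2744 in the other libraries. It scored 52.7 on the first principal component (28.7% of the variance), against -26.2 to 21.9 elsewhere. Ptprc, which encodes the leukocyte antigen CD45, was also highest in it, at 12.07 against 9.65 to 11.45. Of the carcinoma markers, the keratin genes Krt8 (7.86 to 8.65), Krt18 (7.84 to 8.88) and Krt7 (4.996 to 6.87) were detected in all libraries. The keratin gene Krt19 was at the lowest value in 2 of 14 libraries and at most 5.48. The epithelial gene Epcam was at the lowest value in 4 of 14 libraries and at most 5.30. In bulk tumour RNA, more cells of a type and more RNA per cell cannot be told apart. Counts over gene lists in MYCi975 against vehicle are therefore given with and without replicate 2.

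The AP-1 subunits were highest in MYCi975 replicates 1 and 2, and all 5 had a higher mean with MYCi975 than with vehicle. Fos, which pairs with Jun proteins, was 11.44, 12.29, 10.65 and 10.28 in the MYCi975 libraries and 11.19, 10.43, 10.68 and 10.12 in the vehicle libraries. It was 10.45, 10.04 and 10.38 with the combination and 10.51, 10.07 and 10.73 with TMP195. Only MYCi975 replicates 1 and 2 lay above every vehicle library, and replicates 3 and 4 lay inside the vehicle range. Fosb, a Fos relative, was 10.18, 10.44, 9.35 and 8.30 with MYCi975 and 9.82, 8.79, 9.12 and 8.39 with vehicle. In the combination libraries Fosb was 9.36, 9.04 and 9.61, against 9.49, 8.26 and 8.65 with TMP195. MYCi975 replicate 4 thus fell below all vehicle libraries for Fosb.

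Atf3, a stress-induced AP-1 partner, was 9.54, 10.31, 8.70 and 8.67 with MYCi975 and 8.98, 8.40, 8.998 and 7.94 with vehicle. In the combination it was 8.19, 8.07 and 8.17, and with TMP195 8.09, 8.19 and 8.52. The combination libraries lay within 0.12 of each other (SD 0.06), far tighter than the MYCi975 libraries (SD 0.78). Jun, the founding Jun protein, ran from 11.08 to 11.98 with MYCi975, from 10.87 to 11.31 with the combination, from 10.98 to 11.44 with TMP195 and from 10.99 to 11.55 with vehicle. Junb, which can restrain Jun, ran from 9.31 to 10.94 with MYCi975, from 9.24 to 9.63 with the combination, from 9.69 to 9.91 with TMP195 and from 9.20 to 9.98 with vehicle. For both Jun and Junb the MYCi975 and vehicle ranges overlapped, and for Junb every combination library lay below every TMP195 library.

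The zinc finger factors and the nuclear receptor of the group showed the same 2 high libraries. Egr1, an early growth response factor, was 10.92, 11.52, 9.56 and 8.88 with MYCi975 and 9.91, 8.98, 9.68 and 9.09 with vehicle. With the combination it was 9.57, 9.42 and 9.77, and with TMP195 it was 9.71, 9.17 and 9.70. For Egr1 the MYCi975 group held both the highest and the lowest library of all 14. Nr4a1, an orphan nuclear receptor that class IIa deacetylases and MEF2 factors regulate in muscle and lymphocytes, was 7.51, 8.43, 7.10 and 6.27 with MYCi975 and 6.94, 6.21, 7.37 and 6.48 with vehicle. It was 6.93, 6.91 and 7.05 in the combination libraries, against 6.40, 6.60 and 7.39 in the TMP195 libraries. Here too MYCi975 replicate 4 lay near the bottom, and the combination libraries were close together. Egr2, needed for myelination and for restraining T cells, was low throughout, at 5.14 to 6.92 with MYCi975, 5.14 to 5.79 with the combination, 5.06 to 6.10 with TMP195 and 5.01 to 5.995 with vehicle.

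Dusp1 was also highest in MYCi975 replicates 1 and 2, whereas for Ier2 a vehicle library came second. Dusp1, a phosphatase that switches MAP kinases off, was 10.59, 11.51, 9.68 and 9.55 with MYCi975 and 10.46, 9.56, 9.82 and 9.42 with vehicle. It was 8.99, 9.35 and 9.52 with the combination and 9.88, 9.77 and 10.15 with TMP195, so that every combination library lay below every TMP195 library. Ier2, a small nuclear regulator, was 8.11, 8.04, 7.49 and 6.81 with MYCi975 and 7.80, 7.41, 8.05 and 7.14 with vehicle. In the combination libraries it was 7.50, 7.22 and 7.65, and in the TMP195 libraries 7.58, 6.73 and 7.60. Its group means were 7.61 ± 0.60 with MYCi975 and 7.60 ± 0.41 with vehicle (SD, n = 4 each), the smallest difference among the 10.

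**Figure D1:**
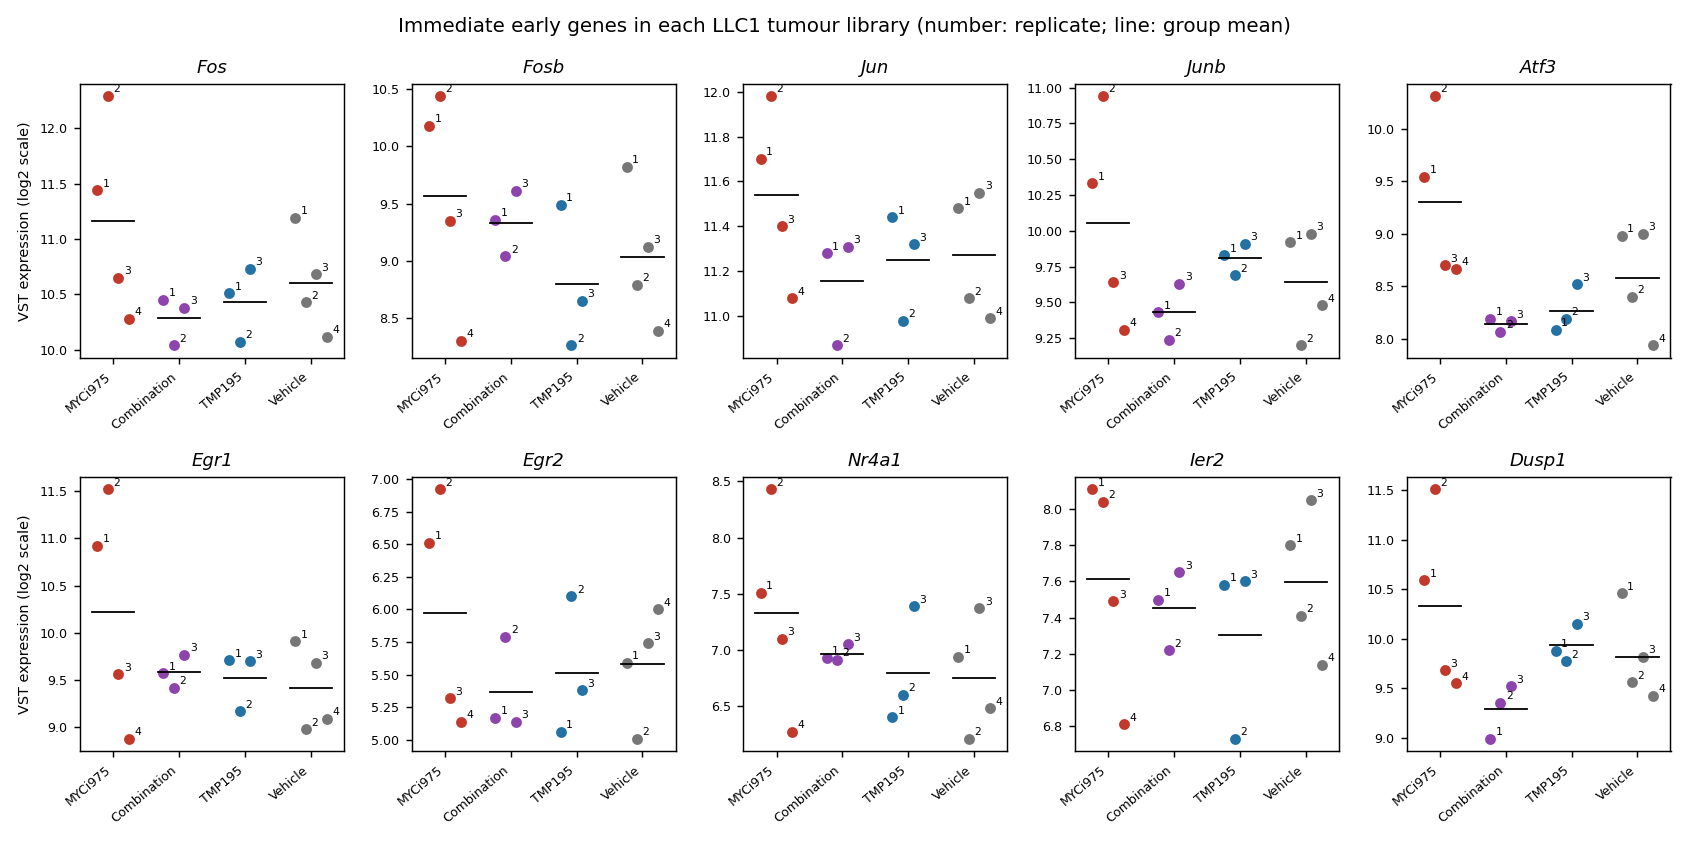
Expression of each of the 10 genes (y axis, variance-stabilised log2 scale, each panel with its own range) in the 14 libraries by group (x axis); points are libraries, numbers are replicates and lines are group means. MYCi975 replicates 1 and 2 stand above the rest in most panels, whereas MYCi975 replicates 3 and 4 lie among the other groups.

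MYCi975 replicate 2 was the highest library for 9 of the 10 genes, and MYCi975 replicate 1 was the highest for Ier2 and second for the other 9. All 10 genes lay above their own 14-library mean in both of these libraries, against 4 in MYCi975 replicate 3 and 1 in MYCi975 replicate 4. Vehicle libraries were also split, with 8 and 7 genes above the mean in replicates 1 and 3 against 0 and 1 in replicates 2 and 4. Averaged over the 10 centred genes, MYCi975 libraries 1 to 4 stood at 0.76, 1.31, -0.04 and -0.50. Combination libraries stood at -0.24, -0.33 and -0.10, TMP195 libraries at -0.13, -0.37 and 0.01, and vehicle libraries at 0.28, -0.42, 0.17 and -0.42. No library outside the MYCi975 group came near its 2 highest.

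Within groups the 10 genes were more spread out than most. Their within-group SD had a median of 0.58 (0.30 for Jun to 0.73 for Egr1), against a median of 0.24 over the 13711 genes tested. Among genes of similar level, within 0.5 on the log2 scale, Egr1 was more spread than 99.6%, Fosb than 99.1% and Jun than 74.6%. The genes also moved together. Over the 45 pairs of the 10 genes the median Pearson correlation across the 14 libraries was 0.80, against -0.0016 over all pairs of tested genes. From deviations around group means, in which differences between treatments are removed, the median was 0.84. Without MYCi975 replicate 2 the median over the values themselves was 0.68 in 13 libraries. The closest pair was Fos and Atf3 (r = 0.94) and the loosest Egr2 and Ier2 (r = 0.31). These correlations describe libraries that share whatever set their makeup and handling, and carry no test.

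**Figure D2:**
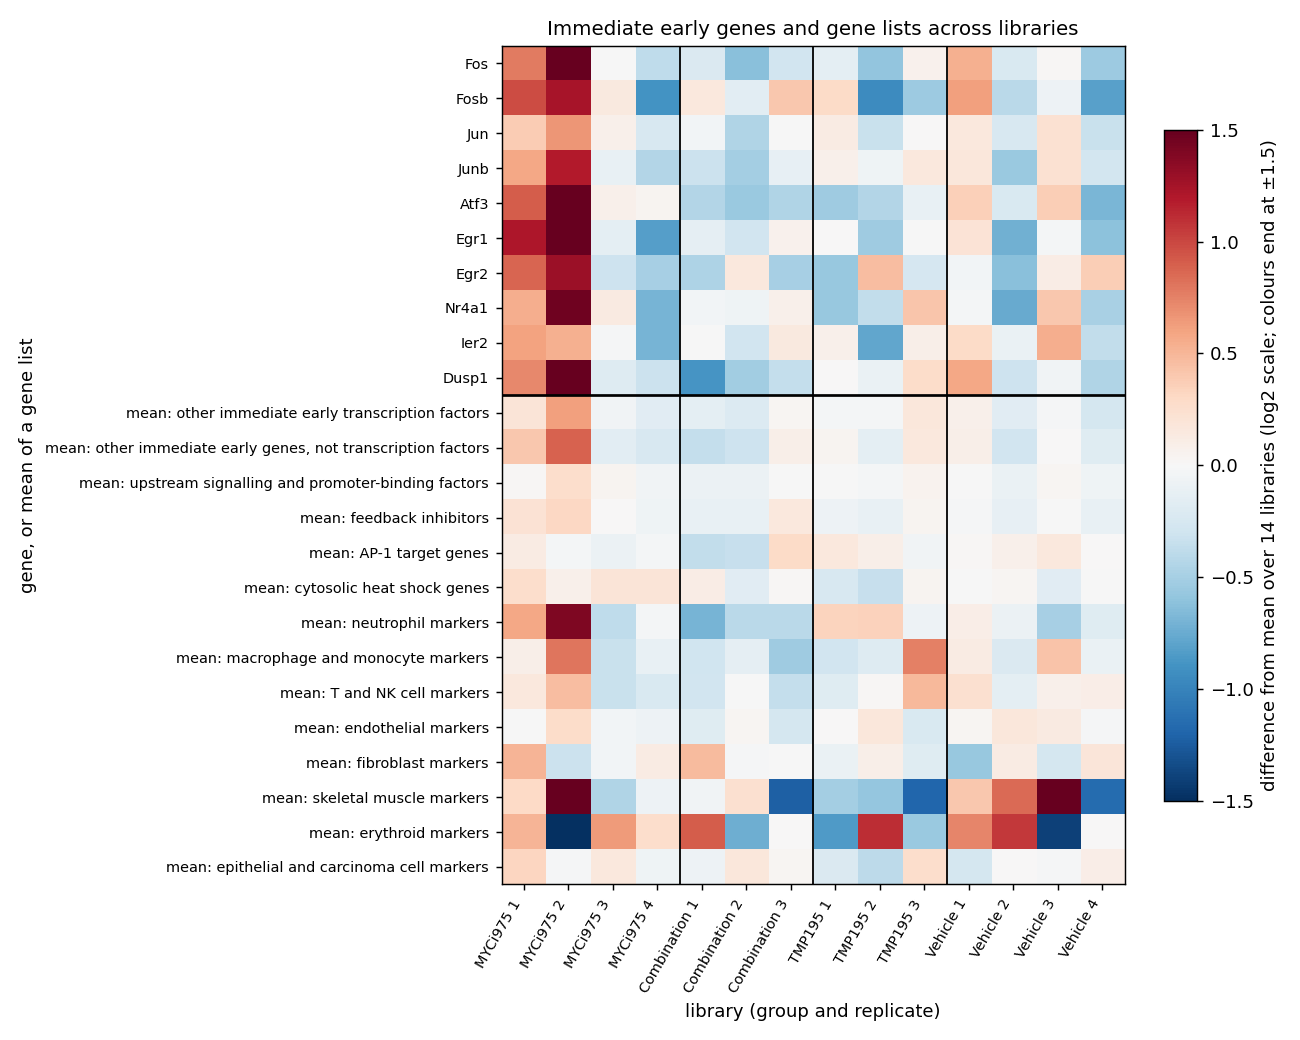
Difference of each of the 10 genes (upper rows) and of the mean of each gene list (lower rows) from its mean over the 14 libraries, on the log2 scale; columns are libraries grouped by treatment. The 2 leftmost columns, MYCi975 replicates 1 and 2, are high for the 10 genes and for neutrophil markers (0.58 and 1.40), and the vehicle columns are mixed. MYCi975 replicate 2 is also high for skeletal muscle (1.59) and macrophage and monocyte markers (0.80) and low for erythroid markers (-1.68). Vehicle replicate 3 is higher still for skeletal muscle markers (1.89).

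In MYCi975 against vehicle, the comparison on which they were picked, all 10 genes had a higher mean, where 51.7% of all tested genes did and 48.3% had a lower one. The differences ran from 0.02 for Ier2 to 0.80 for Egr1, with 0.72 for Atf3, 0.58 for Nr4a1 and 0.56 for Fos. Their median was 0.53, against 0.0073 over all tested genes. None of the 10 had all MYCi975 libraries above or all below the vehicle libraries, which 1.03% and 0.707% of tested genes had. Without MYCi975 replicate 2 the median was 0.15 and 9 of 10 were higher, where 51.3% of all tested genes were. In that reckoning Egr1 differed by 0.37 and Atf3 by 0.39. Without MYCi975 replicate 4 the median was instead 0.81. By limma's test over all genes 0 of 13711 passed an adjusted p of 0.05 in this comparison (0%), with 253 higher (1.85%) and 204 lower (1.49%) at an unadjusted p under 0.05.

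MYCi975 was the top group for all 10 genes, and what followed differed from gene to gene. For Fos, Jun, Atf3 and Egr2 the order below it was vehicle, TMP195 and combination. For Egr1 and Nr4a1 it was combination, TMP195 and vehicle, and for Junb and Dusp1 it was TMP195, vehicle and combination. Fosb had combination, vehicle and TMP195 in that place, and Ier2 had vehicle, combination and TMP195. Of the 30 gaps between neighbouring group means, all but 1 were smaller than the gene's pooled within-group SD. That SD pools all groups, and the MYCi975 libraries had the largest SD for each gene. The exception was the gap between MYCi975 and vehicle for Atf3, at 0.72 with an SD of 0.52. It belongs to the comparison on which the genes were picked, and it was 0.39 without MYCi975 replicate 2.

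The combination and TMP195 libraries took no part in that comparison, and setting one against the other shows MYCi975 added to TMP195 in other libraries. There the 10 genes did not share a direction in the values as deposited. All 10 were higher with Ptprc as a covariate (median 0.48), but its slope was fitted over all 14 libraries, the MYCi975 ones included. Ptprc also did not overlap between the groups, at 9.65 to 10.35 with the combination and 10.46 to 11.45 with TMP195. The adjusted value is therefore an extrapolation and is not independent of the choice of genes. Neutrophil markers moved in this comparison as well, with 0 of 10 higher in the combination (median -0.71), and their part in the result was not tested. Fosb, Nr4a1, Ier2 and Egr1 had higher means in the combination than with TMP195, by 0.54, 0.17, 0.15 and 0.06, and the other 6 had lower means. Over all tested genes 51.1% were higher and 48.9% lower. The median was -0.11, against 0.0056 over all tested genes, and it changed sign without TMP195 replicate 3 (0.0036) or combination replicate 2 (0.015). Fosb averaged 9.33 ± 0.29 with the combination and 8.80 ± 0.63 with TMP195 (SD, n = 3 each), a difference with a 95% interval of -0.47 to 1.54. Dusp1 averaged 9.29 ± 0.27 with the combination and 9.93 ± 0.19 with TMP195, a difference of -0.64 with an interval of -1.48 to 0.20. Egr1 averaged 9.58 ± 0.18 with the combination and 9.52 ± 0.31 with TMP195, with an interval of -0.98 to 1.10. The spread behind these intervals comes from all 14 libraries, including those used to pick the genes. For Dusp1 the SD with MYCi975 was 0.91, larger than in either group compared here. Dusp1 and Junb were the 2 of 10 genes whose combination libraries all lay below the TMP195 libraries, as 6.36% of tested genes did, and 0 of 10 lay above, as 5.48% did.

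No gene passed limma's test in the combination against TMP195 after Benjamini-Hochberg adjustment over 13711 genes (0%). At an unadjusted p under 0.05 there were 228 higher (1.66%) and 375 lower (2.74%) genes, none of them among the 10. The adjusted p of limma's test was 0.998 for each of the 10, and the smallest unadjusted one, limma's for Dusp1, was 0.12. With limma fitted on the combination and TMP195 libraries alone, the adjusted p was 0.67 for Dusp1 and 0.75 for Junb. A p that misses the threshold does not show that the groups were alike.

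**Figure D3:**
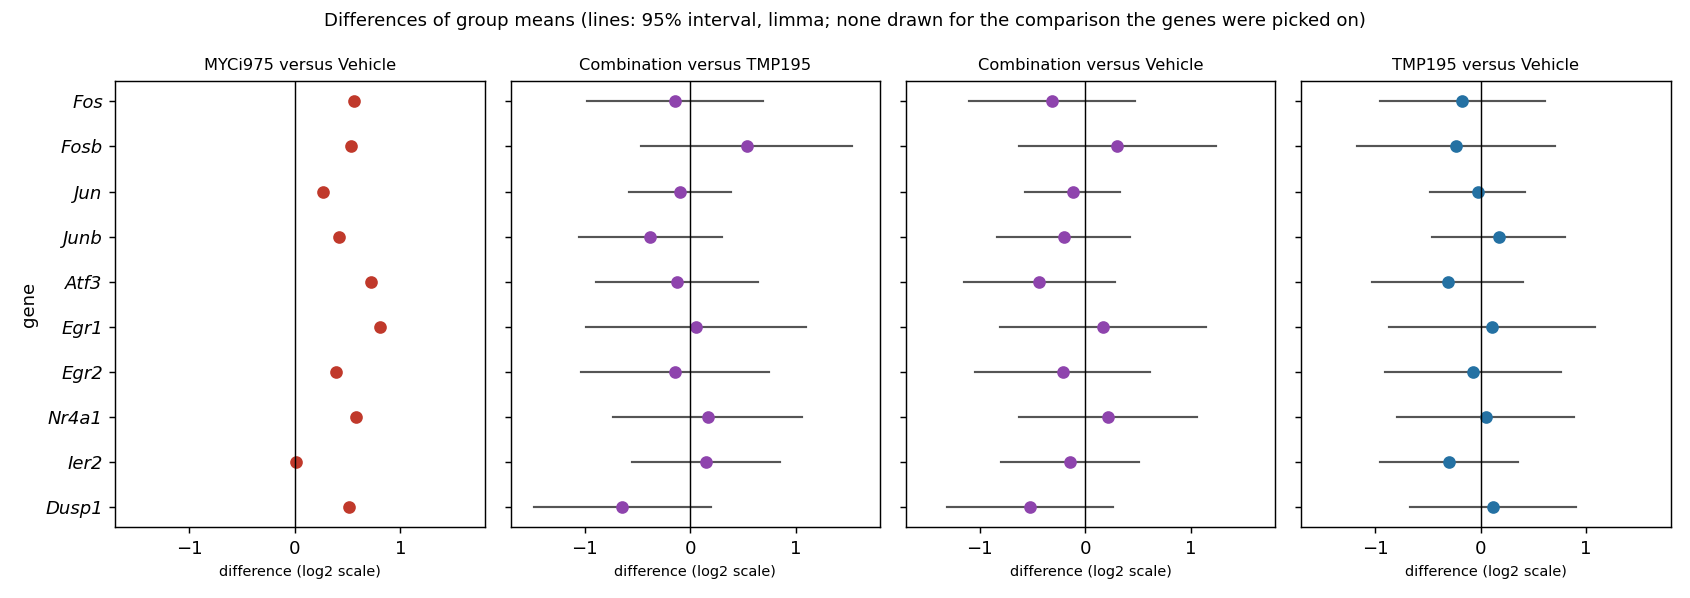
Difference of group means for each gene (x axis, log2 scale; first-named group minus second) in 4 comparisons; points are differences and lines are 95% intervals from limma, with none drawn for MYCi975 against vehicle. The points of MYCi975 against vehicle, on which the genes were picked, are all at or above 0. Every interval in the other panels includes 0, with the spread taken from all 14 libraries.

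Against vehicle, with TMP195 and with the combination, each of the 10 genes differed by less than its pooled within-group SD. That SD includes the MYCi975 libraries. For Dusp1 the combination difference of -0.53 exceeded the SD of either group compared, 0.27 with the combination and 0.46 with vehicle. Both comparisons with vehicle share the vehicle libraries with the one used to pick the genes, so they are not independent of the choice. In TMP195 against vehicle 4 of 10 had higher and 6 lower means (50.8% and 49.2% of all genes), the median was -0.05, and the differences ran from -0.31 for Atf3 to 0.17 for Junb. That median was 0.072 without TMP195 replicate 2, 0.037 without vehicle replicate 1 and 0.024 without vehicle replicate 3. In the combination against vehicle 3 of 10 were higher and 7 lower (49.7% and 50.3% of all genes), the median was -0.18, and the differences ran from -0.53 for Dusp1 to 0.30 for Fosb. That median was 0.13 with 8 of 10 higher when Ptprc was a covariate, and -0.32 with 0 of 10 higher with the replicate number as a block. It was -0.060 without vehicle replicate 3 and -0.068 without combination replicate 2. Atf3 averaged 8.14 ± 0.06 with the combination (n = 3) and 8.58 ± 0.51 with vehicle (SD, n = 4), a difference of -0.44 (95% interval -1.15 to 0.28). In neither comparison did any of the 10 have groups that do not overlap. Every 95% interval included 0, with the spread taken from all 14 libraries. Of all tested genes 2.4% lay above and 1.87% below vehicle without overlap with TMP195, and 2.8% and 3.27% with the combination. By limma 0 of 13711 genes passed in either (0%), with 202 higher (1.47%) and 179 lower (1.31%) at an unadjusted p under 0.05 for TMP195, and 285 (2.08%) and 185 (1.35%) for the combination. Set beside MYCi975, the combination means of all 10 genes were lower, by 1.16 for Atf3, 1.04 for Dusp1, 0.87 for Fos and 0.16 for Ier2 on the log2 scale, but the MYCi975 libraries are those on which the genes were chosen.

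Genes were also searched for the pattern most like the mean of the 10. By Pearson correlation across the 14 libraries they were Ier5 (0.97), Btg2 (0.97), Trib1 (0.96), Msra (0.96), Klf4 (0.95) and Zfp36 (0.93). Btg2, an antiproliferative gene, was 9.43, 10.39, 8.21 and 7.86 with MYCi975 and 8.66, 8.14, 8.41 and 7.92 with vehicle. It was 8.08, 7.94 and 8.22 with the combination and 8.31, 8.26 and 8.73 with TMP195. The same 2 MYCi975 libraries were high and replicate 4 was the lowest of all. Msra, which repairs oxidised methionine, was 6.32, 6.68, 5.64 and 5.52 with MYCi975 and 6.08, 5.49, 5.92 and 5.34 with vehicle. Without MYCi975 replicate 2 the correlations were 0.93 for Ier5, 0.92 for Msra and 0.84 for Zfp36.

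Further immediate early genes were taken as lists, which like those below were chosen with earlier results of these data known. In MYCi975 against vehicle 23 of 25 other immediate early transcription factors had higher means (median 0.25) and 27 of 31 other immediate early genes (median 0.34). Over all tested genes 51.7% had higher means there, and 51.1% in the combination against TMP195. The MYCi975 and vehicle libraries are those on which the 10 were picked, so list counts between them are not independent of that choice. By limma with adjustment over all genes 0 of either list passed (0%), and at an unadjusted p under 0.05 there were 2 higher in each, where 1.85% of all tested genes were. Csrnp1, a nuclear factor induced early, differed by 0.77, and Thbs1, the matrix protein thrombospondin, by 0.80. Thbs1 was 13.86, 14.61, 12.62 and 12.52 with MYCi975 and 12.56, 12.46, 12.82 and 12.59 with vehicle. Within MYCi975 again only replicates 1 and 2 lay above the vehicle range. With TMP195 Thbs1 was 12.823, 13.21 and 13.06, each above the highest vehicle library (12.819), and with the combination 12.07, 12.67 and 12.76. Bhlhe40, a repressor of the circadian clock, was 9.47 to 10.08 with MYCi975 and 8.84 to 9.28 with vehicle, a difference of 0.53 with no overlap, which 1.03% of tested genes had in this direction. Without MYCi975 replicate 2, the medians were 0.12 and 0.11 with 19 of 25 and 27 of 31 higher. In the combination against TMP195, 8 of 25 transcription factors were higher and 17 lower (median -0.09), and 8 of 31 other genes were higher and 23 lower (median -0.31). By limma again 0 passed, and at an unadjusted p under 0.05 there were 3 lower transcription factors and, among the other genes, 1 higher and 1 lower. Over all tested genes 1.66% were higher and 2.74% lower at that p, so the counts of 1 were near the share of all genes. Examples were Cebpb, a factor of inflammatory transcription (-0.60), and Rgs1, a regulator of G protein signalling in leukocytes (-1.16), on the lower side and Ccn1, a matrix-associated growth signal (0.61), on the higher.

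Genes acting upstream and downstream were taken as lists too. Of 27 kinases and promoter-binding factors 20 had higher means with MYCi975 than with vehicle (median 0.12), with Braf, a kinase that starts the ERK cascade, at 0.38 and Mapk14, the stress kinase p38 alpha, at 0.35. With the combination 7 of 27 were higher than with TMP195 (median -0.07). In both comparisons 0 of 27 passed limma's adjusted test, and without MYCi975 replicate 2 the first count was 16 of 27 (median 0.07). Downstream, 6 of 18 AP-1 target genes had higher means and 12 lower with MYCi975 against vehicle (median -0.06). These counts were 8 and 10 (median -0.03) without MYCi975 replicate 2. With the combination against TMP195 they were 7 and 11 (median -0.23). With the combination against TMP195 the urokinase receptor gene Plaur differed by -0.60, the haem-degrading enzyme gene Hmox1 by -0.67 and the collagenase gene Mmp13 by -1.21. Plaur and Hmox1 did not overlap between these groups (6.36% of tested genes on the lower side). Tnfrsf12a, named by the same rule, went the other way by 0.35, also with no overlap (5.48% on the higher side). By limma 0 of the 18 passed the adjusted test in either comparison.

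Feedback inhibitors of growth factor signalling were measured as a further list, and here 15 of 17 had higher means with MYCi975 than with vehicle (median 0.19) and 7 of 17 with the combination than with TMP195 (median -0.06). The first count was 14 of 17 and its median 0.09 without MYCi975 replicate 2. At an unadjusted p under 0.05 by limma 2 were higher in the first comparison, where 1.85% of all tested genes were, and 4 in the second, where 1.66% were, and 0 passed after adjustment in either. Errfi1, which blocks the EGF receptor, was 10.49, 10.32, 10.42 and 10.12 with MYCi975 and 9.92, 10.04, 10.05 and 10.05 with vehicle. It was 10.34, 10.41 and 10.73 with the combination and 9.94, 9.79 and 10.04 with TMP195. In both pairs the groups did not overlap (1.03% and 5.48% of tested genes), and replicates 1 and 2 of MYCi975 did not stand apart. Errfi1 and the Sprouty genes were named because their p in these comparisons was among the smallest of the list. Their differences and intervals are therefore not independent of that choice. Errfi1 differed by 0.32 (95% interval 0.07 to 0.57) in MYCi975 against vehicle, with adjusted p = 0.999 by limma. In the combination against TMP195 Errfi1 differed by 0.57 (0.28 to 0.86), with adjusted p = 0.998 by limma. The Sprouty genes, which dampen receptor signalling to ERK, showed the second difference too, by 0.66 for Spry1, 0.46 for Spry2 and 0.55 for Spry4, each with groups that did not overlap (5.48% of tested genes) and adjusted p = 0.998 by limma. Spry4 also did not overlap between MYCi975 and vehicle (1.03% of tested genes), at 8.95 to 9.24 with MYCi975 and 8.72 to 8.92 with vehicle, a difference of 0.27.

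**Figure D4:**
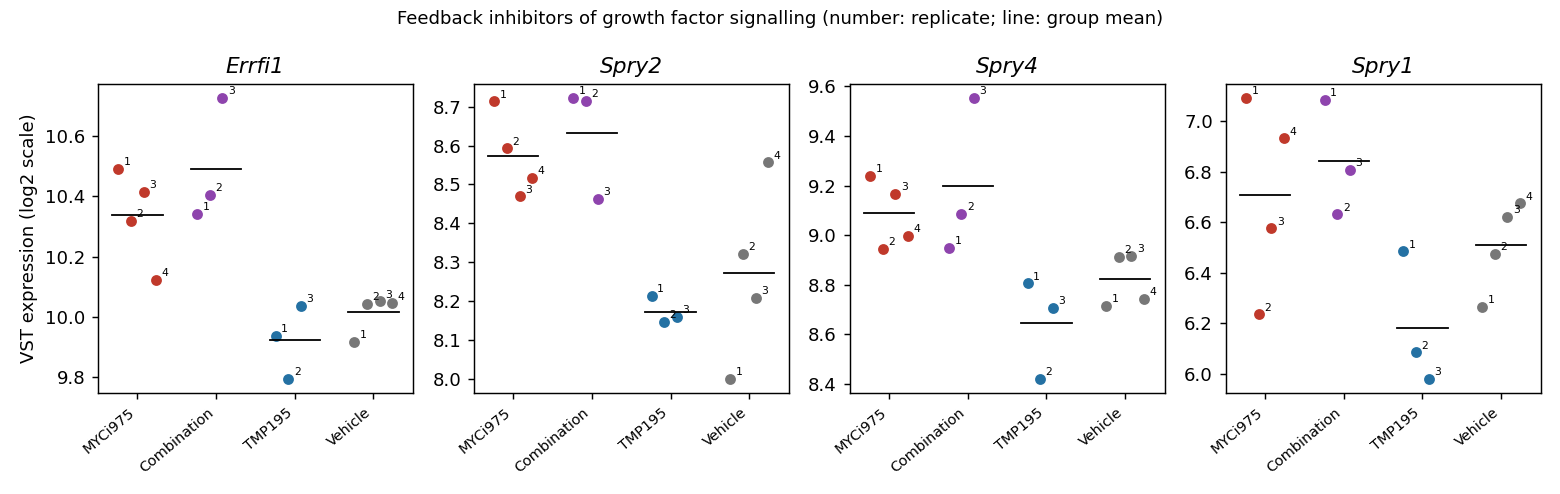
Expression of 4 feedback inhibitors (y axis, variance-stabilised log2 scale, each panel with its own range) by group (x axis); points are libraries, numbers replicates and lines group means. For Errfi1 all MYCi975 and combination libraries lie above 10.1 and all TMP195 and vehicle libraries below it.

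Taking all 7 libraries that received MYCi975 against the 7 that did not, 4 of 13711 tested genes (0.0292%) were higher in every library with it than in any without it, and 2 (0.0146%) were lower. The 4 were Errfi1 (10.12 to 10.73 with MYCi975 and 9.79 to 10.05 without), Spry4 (8.95 to 9.55 with it and 8.42 to 8.92 without), Rapgef3, an exchange factor activated by cyclic AMP (6.51 to 7.05 with it and 5.97 to 6.44 without), and Nat14 (5.65 to 6.002 with it and 5.26 to 5.64 without). The 2 lower genes were Taf6l (5.57 to 5.94 with it and 6.01 to 6.43 without) and Adamts7, a matrix protease (5.63 to 6.13 with it and 6.22 to 6.99 without). None of the 10 immediate early genes separated the libraries in this way. This comparison was chosen after the values of Errfi1 and Spry4 were seen, and it carries no test. How many genes would separate under an arbitrary split of the 14 libraries was not counted, so the small shares do not mark these genes as unusual. Whether the counts of 4 and 2 genes are due to MYCi975 was not tested.

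Ptprc and the mean of the neutrophil markers were, like the mean of the 10, highest in MYCi975 replicate 2, but did not follow the 10 in every library. The centred neutrophil mean was 0.35 in TMP195 replicate 2 and -0.49 in vehicle replicate 3, where the 10 stood at -0.37 and 0.17. In TMP195 replicate 3 Ptprc was 11.45 and the 10 stood at 0.01. Ptprc ran from 10.09 to 12.07 with MYCi975, 9.65 to 10.35 with the combination, 10.46 to 11.45 with TMP195 and 10.26 to 10.97 with vehicle, and with it as a covariate the median of the 10 in MYCi975 against vehicle was 0.33. In the combination against TMP195 the same covariate changed the median to 0.48 with 10 of 10 genes higher, against -0.11 with 4 of 10 higher without it. Ptprc did not overlap between the combination and TMP195, so that value is an extrapolation. All 10 neutrophil markers had higher means with MYCi975 than with vehicle (median 0.55), and their summed level ran from 11.99 to 13.81 with MYCi975, 11.71 to 11.94 with the combination, 12.36 to 12.86 with TMP195 and 11.78 to 12.57 with vehicle. Of these markers 9 of 10 were highest in MYCi975 replicate 2, with Csf3r, the receptor for granulocyte colony-stimulating factor, at 10.11. Without that library 9 of 10 markers had higher means with MYCi975 than with vehicle (median 0.24). The neutrophil markers' part in the result was not tested.

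Heat shock genes, which encode protein chaperones, had higher means with MYCi975 than with vehicle in 10 of 12 (median 0.17), and in 11 of 12 with the combination than with TMP195 (median 0.15). Leaving out MYCi975 replicate 2, the first count was 11 of 12 (median 0.25). Hspa1b, an inducible chaperone, was 9.73, 9.63, 9.66 and 9.11 with MYCi975 and 9.44, 8.93, 8.61 and 8.42 with vehicle, a difference of 0.69. Unlike the 10 genes, Hspa1b was as high in MYCi975 replicate 3 as in replicates 1 and 2. The chaperone gene Hspa1a did not share this, at 9.72, 9.98, 9.27 and 8.79 in MYCi975 replicates 1 to 4. By limma 0 of 12 heat shock genes passed the adjusted test in either comparison. Macrophage and monocyte markers were higher in 5 of 10 with MYCi975 than with vehicle (summed level 11.65 to 12.83 with MYCi975 and 11.72 to 12.31 with vehicle), and lower in 9 of 10 with the combination than with TMP195 (11.47 to 11.84 with the combination and 11.79 to 12.69 with TMP195). T and NK cell markers, of which 7 of 10 were tested, were higher in 4 of 7 with MYCi975 than with vehicle (summed level 8.47 to 9.29 with MYCi975 and 8.63 to 9.10 with vehicle). In the combination 0 of 7 were higher than with TMP195 (median -0.42). Without MYCi975 replicate 2 the counts in MYCi975 against vehicle were 2 of 10 macrophage and 0 of 7 T and NK cell markers. Skeletal muscle markers summed to 8.03 to 11.81 with MYCi975 and 7.24 to 11.91 with vehicle, and fibroblast markers to 14.07 to 14.77 with MYCi975 and 13.65 to 14.79 with vehicle. Endothelial markers summed to 9.14 to 9.70 with MYCi975 and 9.22 to 9.44 with vehicle, and erythroid markers to 11.46 to 13.74 with MYCi975 and 11.68 to 14.14 with vehicle. The epithelial list summed to 9.45 to 9.92 with MYCi975 and 9.38 to 9.79 with vehicle. The part of these cell types in the result was not tested.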

How the data were processed

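RNA was measured in 14 libraries made with a stranded total RNA kit, per the labels' protocols. The authors deposited 1 table of log2-scale values after a variance-stabilising transformation, per the file headers and name. The submitters' processing notes name Salmon and the build hg38, which is human, while the IDs are mouse, so the files' build is not settled and their coordinates are not printed. Depth is unknown. Of 21152 IDs, 20264 (95.8%) matched a mouse symbol. The labels do not say that libraries came from separate animals, and the spread behind the p-values may therefore be technical.

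The 10 genes and all lists were chosen with earlier results of these data known. Genes with a mean more than 1 above the lowest value (13711) were fitted with limma 3.58.1 in R 4.3.3, with 1 mean per group over all 14 libraries, an intensity trend, two-sided tests and Benjamini-Hochberg adjustment at 0.05. A list's summed level is the log2 of its summed 2-to-the-power values. List genes were named from those with the smallest p, up to 4 per list in each of MYCi975 against vehicle and the combination against TMP195, and 6 genes by their correlation with the mean of the 10. The fit was tested on simulated data with known changes.

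Replicate numbers were checked for pairing by the correlation of deviations from group means. All 3 pairs exceeded 0.1 for TMP195 and vehicle (0.11 to 0.21), and the pairs did not all exceed 0.1 for the other comparisons (-0.22 to 0.21). The labels state no pairing, and libraries of unlike number were not compared, so a pairing is not shown. Alternatives were other filters, moderation, scalings, library weights, a fit on the compared groups alone, a replicate block and leaving out each library. Added after seeing the data were Ptprc as a covariate and the lists without MYCi975 replicate 2.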

Additional observations from a re-analysis of the deposited data

How the results depend on the processing

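In the 4 comparisons the count of genes past the threshold was 0 under every alternative, and with the replicate block, which changed no call. The median of the 10 genes in MYCi975 against vehicle ran from 0.15 to 0.81 when 1 library was left out, and from 0.33 to 0.54 under the other settings. In the combination against TMP195 it was -0.11, with -0.15 to 0.01 when 1 library was left out and 0.48 with Ptprc as a covariate. This was the 1 median that moved by more than 0.498, the within-group SD of the mean of the 10 over all groups. By that measure the fall from 0.53 to 0.15 in MYCi975 against vehicle did not count as a move. Outside MYCi975 against vehicle, and leaving aside the Ptprc covariate, 33 differences of single genes changed sign, none with a call. Several of them fell in the same fit. Changes of sign in MYCi975 against vehicle were not counted. There Ier2 (0.016) ran from -0.15 to 0.28 when 1 library was left out, and down to -0.011 under other settings. With the replicate block TMP195 against vehicle gave -0.17 for Egr1, -0.17 for Nr4a1 and -0.079 for Dusp1, and the combination against vehicle gave -0.015 for Fosb, -0.11 for Egr1 and -0.0079 for Nr4a1. The median of the 10 with the block was -0.17 in TMP195 against vehicle and -0.32 in the combination against vehicle, where 0 of 10 were then higher. Library weights gave -0.12 for Nr4a1 and -0.0054 for Dusp1 in TMP195 against vehicle. Leaving out 1 library, the combination against TMP195 ran from -0.33 to 0.0030 for Fos, -0.23 to 0.047 for Jun, -0.21 to 0.0041 for Atf3, -0.12 to 0.15 for Egr1, -0.37 to 0.15 for Egr2, -0.031 to 0.46 for Nr4a1 and -0.14 to 0.30 for Ier2. TMP195 against vehicle ran from -0.33 to 0.024 for Fos, -0.58 to 0.037 for Fosb, -0.12 to 0.11 for Jun, -0.036 to 0.29 for Egr1, -0.36 to 0.16 for Egr2, -0.25 to 0.25 for Nr4a1 and -0.014 to 0.33 for Dusp1. The combination against vehicle ran from -0.21 to 0.022 for Jun and -0.30 to 0.0071 for Ier2. The cause of these changes of sign was not tested. Read depth is not known, and 3 or 4 libraries per group limit the precision.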
